A study of Mus musculus with 6 samples.

Results

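Some of the amino acids that are not needed for protein synthesis are taken apart in the kidney. The genes described here encode 43 enzymes of that work, of the 12125 genes with a row in the deposited expression table. The members were a list of enzymes of amino acid breakdown, creatine synthesis, the urea cycle and one-carbon transfer, kept where they had a row in that table, and the rule used no measured value. By this rule all 43 had a row, 1 of them (Mut, methylmalonyl-CoA mutase) under the newer symbol Mmut. The study deleted Trf1, whose protein guards chromosome ends, and profiled kidney cells that were labelled as fibroblasts. The 3 libraries of the control group came from Trf1+/+; Col1a2-CreERT2 mice and the other 3 from Trf1flox/flox; Col1a2-CreERT2 mice, and the question asked of each enzyme is whether its RNA differed between these genotypes. All mice carried the tamoxifen-dependent Cre, driven by a Col1a2 promoter, and the KFP reporter, and both groups received tamoxifen. Males and females entered at 6 to 8 weeks of age and were injected 3 times a week for 8 weeks, and kidneys were then digested. Cells were stained for CD29 and for the reporter and sorted, and 500 cells made each library by oligo(dT)-primed, PCR-amplified cDNA synthesis. Col1a2 is also active in collagen-making cells other than kidney fibroblasts.

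Most amino acid breakdown begins by moving or removing the amino group, after which the carbon skeleton is fed into mitochondrial metabolism. In the kidney this chemistry belongs largely to the proximal tubule, the segment that takes filtered amino acids back from the urine, makes arginine from citrulline and performs the first step of creatine synthesis. Several of the enzymes are known from inborn errors of metabolism, such as those of tyrosine, the branched-chain amino acids and propionate.

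Between 10263382 and 12248797 reads per library fell on listed genes, and 1 read was worth 0.689 to 1.09 normalized counts. A value of at most 3 reads in a library is called the floor below. Terf1, the gene of TRF1, had 0.891, 253 and 235 normalized counts in Trf1+/+ libraries 1 to 3 and 110.0, 7.65 and 12.4 in Trf1flox/flox libraries 1 to 3. Its value in Trf1+/+ library 1 was thus below every Trf1flox/flox value, and Trf1flox/flox library 1 lay between the other libraries of the groups. Trf1+/+ library 1 also had the lowest median over listed genes, 13.4 normalized counts against 118 to 148 in the other 5, and 43.8% of listed genes at the floor against 8.37% to 29.8%. Of genes averaging at least 100 normalized counts in the remaining libraries, 27.1% were at the floor there, against 1.62% to 14.8% elsewhere. Itgb1, the gene of CD29, had 4.45 normalized counts there and 360 to 1735 elsewhere. In such a library a low Terf1 value cannot settle whether the genotype label is right. The label fibroblast was not borne out by the defining markers. Of 17 fibroblast markers 2 had a row, Col1a2 at 0 to 1.78 and Dcn at 0 to 97.3 normalized counts, and Col1a1, Col3a1, Pdgfra and Pdgfrb had no row in the table used here. All 20 proximal tubule markers had a row and summed to 20452 to 153030 normalized counts, and the 8 loop and distal tubule markers summed to 72698 to 170563. The members are therefore described as RNA of these sorted kidney cells, and no cell type is given to them. In such bulk libraries fewer cells of a type and less RNA per cell cannot be told apart. Each genotype is described as 3 mice in the legends of the study, while the labels tie no library to a mouse, and p-values measure the spread between these samples.

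No enzyme was called between the genotypes. By limma on log2(normalized count + 1), with Benjamini-Hochberg adjustment over 9966 genes, 0 members had an adjusted p under 0.05, the smallest being 0.996, as did 0% of all tested genes. At an unadjusted p under 0.05 there were also 0 members, against 4.56% of all genes. On the recovered reads, edgeR gave 0 members at an unadjusted p under 0.05, against 1.97% of all genes. DESeq2 gave 1, Hpd, against 4.11% of all genes, and 0 members were past the adjusted threshold in either. DESeq2 called 0.604% of the 9601 genes to which it gave an adjusted p. By sign alone, 31 of the 43 members were higher in Trf1flox/flox and 12 lower, or 72.1% higher against 55.9% of all genes. The members' median log2 fold change was 0.42 and that of all genes 0.20, and 34 members had a standard error larger than the size of their log2 fold change. The split was 33 of 43 higher with upper quartile scaling (median 0.70, all genes 0.45). With the count models, which differ in scaling and in model, 26 were higher by edgeR and 25 by DESeq2 (medians 0.27 and 0.25, all genes -0.04 and -0.05). Leaving out Trf1+/+ library 2 turned the direction of the members, with 20 of 43 higher and a median of -0.10. All genes kept theirs in that fit, with 56.15% higher and a median of 0.22. Without Trf1+/+ library 1, where Terf1 was lowest, 30 of the 41 members still tested were higher, with a median of 0.57 (all genes -0.02). The log2 fold changes of Hpd, Amt, Gamt and Hibch were then 3.87, 2.60, 3.04 and 0.54. In that fit 7 members changed sign against the fit of all 6 libraries, namely Gatm (-0.55), Ass1 (-0.11), Bckdha (0.70), Aldh6a1 (0.12), Mut (0.066), Gcsh (-0.17) and Kmo (0.75), and again 0 members reached an unadjusted p under 0.05.

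**Figure D1:**
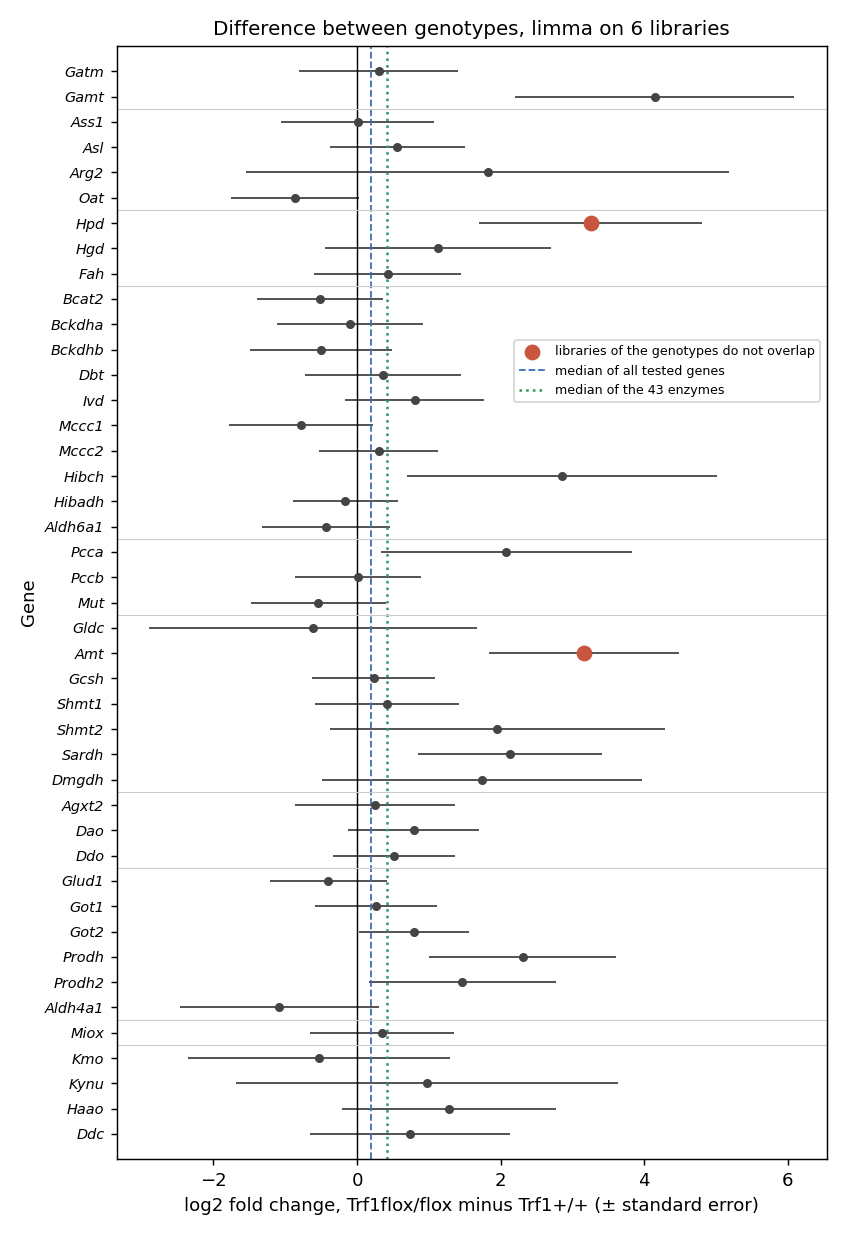
Difference of mean log2(normalized count + 1), Trf1flox/flox minus Trf1+/+, for each of the 43 enzymes in role order, with its standard error from limma (3 libraries a group). Lines mark the median of the members (0.42) and of all tested genes (0.20), and the larger points are Hpd and Amt, the 2 members whose groups did not overlap.

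The 2 members whose 3 Trf1flox/flox libraries all lay above all 3 Trf1+/+ libraries were Hpd and Amt. They are 4.65% of the members, against 8.68% of all genes with groups apart in either direction and 5.35% apart in this one. With the deposited scaling and every library kept, the share of the members was thus no larger than that of other genes. The sequences around the starts of these genes are shown because they are the members with separated groups. That of Miox is shown because Miox had the highest level of all members. Each run covers 250 bases before and 50 after the gene's start in RefSeq (GRCm38.p6), read 5′ to 3′ on the gene's strand. Capitals mark matches to 3 motifs searched on both strands. The first was GTTAAT, a core of sites of the tubule factor HNF1 that reads ATTAAC on the other strand. The second was the TATA box as TATAAA, reading TTTATA on the other strand. The third was CAAAGTCCA, a form of the HNF4A site that reads TGGACTTTG on the other strand.
Hpd, chr5:123182674-123182973, minus strand: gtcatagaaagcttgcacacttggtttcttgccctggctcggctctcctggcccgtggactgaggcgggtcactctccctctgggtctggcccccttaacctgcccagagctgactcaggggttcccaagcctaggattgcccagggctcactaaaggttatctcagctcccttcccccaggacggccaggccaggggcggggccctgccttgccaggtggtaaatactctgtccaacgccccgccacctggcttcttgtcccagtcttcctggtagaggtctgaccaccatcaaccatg
Amt, chr9:108296655-108296954, plus strand: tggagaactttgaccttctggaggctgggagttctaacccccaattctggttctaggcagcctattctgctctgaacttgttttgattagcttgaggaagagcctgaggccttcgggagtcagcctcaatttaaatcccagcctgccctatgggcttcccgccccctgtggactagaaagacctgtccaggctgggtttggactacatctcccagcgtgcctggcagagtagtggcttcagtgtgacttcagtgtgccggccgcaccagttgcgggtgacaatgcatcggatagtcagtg
Miox, chr15:89334223-89334522, plus strand: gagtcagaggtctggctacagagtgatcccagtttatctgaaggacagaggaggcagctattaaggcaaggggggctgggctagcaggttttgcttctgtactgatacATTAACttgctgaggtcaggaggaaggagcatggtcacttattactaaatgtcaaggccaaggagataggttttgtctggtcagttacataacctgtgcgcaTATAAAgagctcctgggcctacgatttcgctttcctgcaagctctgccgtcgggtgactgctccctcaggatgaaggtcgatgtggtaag

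Neither the Hpd nor the Amt window held any of the 3 motifs. The Miox window held ATTAAC 142 bases before the start and TATAAA 40 bases before it. Promoter entries were matched for 38 of the 43 members, with 46 windows in all. GTTAAT or its complement stood in 5 of them (10.9%), those of Bckdhb, Got2, Haao, Miox and Prodh2, against 7.10% of 32851 windows of the same length. TATAAA was in windows of 5 members (Agxt2, Ddc, Got2, Hgd and Miox), or 13.0% of member windows and 13.6% of all. CAAAGTCCA was in 2 member windows, both of the 1 gene Agxt2, or 4.35% of member windows against 0.475% of all. These are matches of letters, and no binding was measured. Kynu, Asl, Dbt, Mmut and Arg2 had no entry.

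Once tyrosine has lost its amino group, 4-hydroxyphenylpyruvate dioxygenase (Hpd) makes homogentisate, homogentisate dioxygenase (Hgd) opens the ring and fumarylacetoacetate hydrolase (Fah) makes the last cut. Hpd (chr5:123171807-123182727, minus strand) had 183, 7.46 and 311 normalized counts in Trf1+/+ libraries 1 to 3 and 1309, 895 and 358 in Trf1flox/flox libraries 1 to 3. The lowest Trf1flox/flox library stood close above the highest Trf1+/+ library, and library 2 of Trf1+/+ was far below the rest. The means were 167 ± 153 and 854 ± 477 (SD, n = 3 each), a log2 fold change of 3.25 (SE 1.56), with an unadjusted limma p of 0.0807 and an adjusted p of 0.996. DESeq2 gave 2.36 with an unadjusted p of 0.0363 and an adjusted p of 0.979, and without Trf1+/+ library 2 the limma value was 1.65. Hgd had 4146, 87.8 and 1851 in Trf1+/+ against 1104, 3002 and 2133 in Trf1flox/flox. Its Trf1+/+ libraries held both the highest and the lowest value, and its log2 fold change of 1.12 (SE 1.58) turned to -0.53 without Trf1+/+ library 2. Fah had 3906, 723 and 2622 against 1245, 3818 and 3776, again with Trf1+/+ library 2 lowest, and a log2 fold change of 0.43 (SE 1.02). All 3 tyrosine enzymes were thus lowest in the same library, and the groups overlapped for Hgd and Fah.

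Creatine is made in 2 steps. Gatm, the amidinotransferase of the first step, had 1295, 4629 and 12559 normalized counts in Trf1+/+ against 2854, 7632 and 6480 in Trf1flox/flox, with a log2 fold change of 0.30 (SE 1.10). Its Trf1+/+ values enclosed those of Trf1flox/flox. Gamt, the methyltransferase of the second step, had 0.891, 0.829 and 192 in Trf1+/+ and 159, 181 and 127 in Trf1flox/flox. Gamt was at 1 read in Trf1+/+ libraries 1 and 2, while Trf1+/+ library 3 held the highest value of all. Its log2 fold change was 4.15 (SE 1.94), the largest of the members, with an unadjusted limma p of 0.0757. On reads, edgeR and DESeq2 gave 1.22 and 1.26, and the ratio of the group means was 2.41. Because 2 values lay at the floor, the fitted log2 fold change depends on the pseudocount and was 2.51 on the log2 scale with a pseudocount of 10. Per kilobase of exon, Gatm stood above Gamt in all 4 libraries where both exceeded the floor, by 3.11 to 4.97 on the log2 scale.

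In the arginine and urea cycle group the genotypes overlapped for all 4 members. Ass1, argininosuccinate synthase, which with Asl makes arginine from citrulline, had 4486, 2590 and 12656 normalized counts in Trf1+/+ against 1991, 8948 and 8392 in Trf1flox/flox. Each group held low and high libraries, and the log2 fold change was 0.01 (SE 1.06). Asl, argininosuccinate lyase, ranged from 240 to 1350 with a log2 fold change of 0.56 (SE 0.94). The per-kilobase level of Ass1 exceeded that of Asl in 6 of 6 libraries, by 2.16 to 4.80 on the log2 scale. Oat, ornithine aminotransferase, had 7475, 3434 and 2230 in Trf1+/+ and 3737, 1465 and 1745 in Trf1flox/flox, a log2 fold change of -0.86 (SE 0.89). The 2 lowest values were in Trf1flox/flox, but its library 1 lay above 2 of the Trf1+/+ libraries. Arg2, the mitochondrial arginase, had 554, 0 and 0 in Trf1+/+ and 662, 0 and 35.8 in Trf1flox/flox. It was high in library 1 of each genotype and at 0 in 3 libraries, each of which allows up to 3 reads. Its log2 fold change of 1.82 had a standard error of 3.37, the largest of the members.

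**Figure D2:**
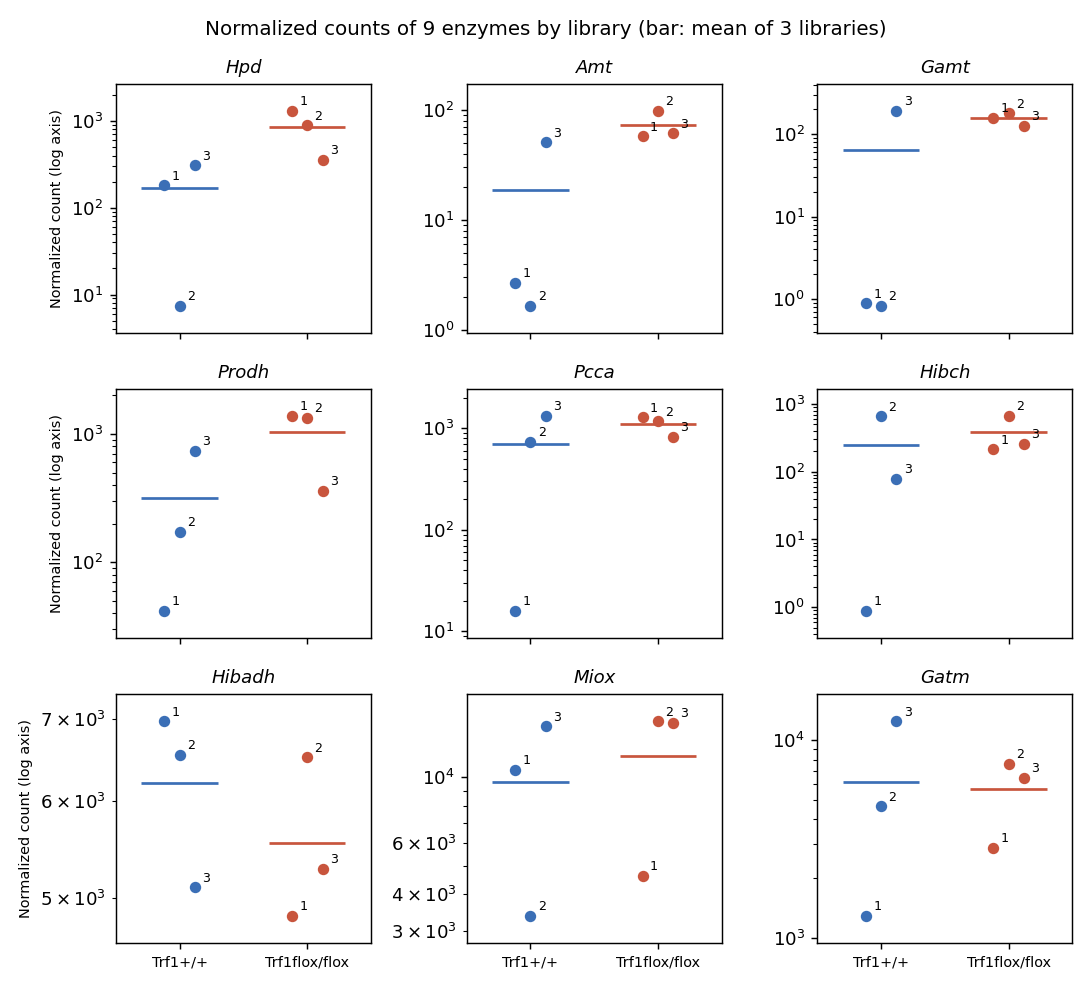
Normalized counts on log axes of 9 enzymes in the 3 Trf1+/+ and the 3 Trf1flox/flox libraries, numbered, with a bar at the mean of each group. Hpd and Amt are separated by genotype, Gamt, Prodh, Pcca and Hibch each have 1 or 2 low Trf1+/+ libraries, and Hibadh, Miox and Gatm overlap throughout.

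The branched-chain amino acids (leucine, isoleucine and valine) lose their amino group through Bcat2, the mitochondrial aminotransferase. Bcat2 had 4095, 2867 and 1092 normalized counts in Trf1+/+ against 2431, 1351 and 1352 in Trf1flox/flox. Its highest and lowest values were both in Trf1+/+, and the log2 fold change was -0.51 (SE 0.88). Aldh6a1, methylmalonate-semialdehyde dehydrogenase of the valine branch, had 15576, 3458 and 7085 against 4611, 6926 and 4883. Its Trf1+/+ library 1 held the largest value of any member in any library and the log2 fold change was -0.43 (SE 0.89). Hibadh, the 3-hydroxyisobutyrate dehydrogenase that makes its substrate, had 6975, 6549 and 5106 against 4842, 6518 and 5286. It was the steadiest of the members, with 1.44-fold between its highest and lowest library, the lowest ratio among the 35 members above the floor everywhere, and a log2 fold change of -0.16 (SE 0.73). Hibch, the hydrolase before it in the valine branch, had 0.891, 665 and 78.8 against 217, 669 and 259. Hibch had a single read in Trf1+/+ library 1, and its log2 fold change was 2.85 (SE 2.16) with that library, 0.54 without it and 0.50 by edgeR on reads. Without Trf1+/+ library 2 it was 4.77, with an unadjusted limma p of 0.0465.

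The other 6 branched-chain genes overlapped between genotypes. Bckdha and Bckdhb (E1 subunits of the branched-chain keto acid dehydrogenase) spanned 134 to 802 and 374 to 1701 normalized counts, and Dbt, its E2 component, 278 to 2703. Ivd, isovaleryl-CoA dehydrogenase of leucine breakdown, spanned 413 to 2756. Mccc1 and Mccc2, the subunits of methylcrotonyl-CoA carboxylase, spanned 678 to 4816 and 540.3 to 1791. The log2 fold changes of these 6 ran from -0.78 (SE 1.00) for Mccc1 to 0.81 (SE 0.97) for Ivd. Over the whole group of 10, 4 members were higher and 6 lower in Trf1flox/flox, with a median log2 fold change of -0.13.

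Propionyl-CoA from valine, isoleucine and other sources passes through propionyl-CoA carboxylase (Pcca and Pccb) and methylmalonyl-CoA mutase (Mut). Pccb had 2980, 713 and 1352 normalized counts in Trf1+/+ against 1903, 1164 and 1337 in Trf1flox/flox. Its Trf1flox/flox values lay inside the range of Trf1+/+, with a log2 fold change of 0.01 (SE 0.88). Pcca spanned 16.0 to 1327, and its lowest value, in Trf1+/+ library 1, was far from the next, 738. Its log2 fold change was 2.08 (SE 1.75), against 0.13 without that library and 0.60 and 0.66 by edgeR and DESeq2. Mut spanned 642 to 3396, with a log2 fold change of -0.54 (SE 0.94). Both carboxylase subunits belong to 1 enzyme. Per kilobase Pcca was below Pccb in 6 of 6 libraries. The log2 ratios were -1.60 to -0.86 in 5 of them and -8.45 in Trf1+/+ library 1. This order depends on the joined exon lengths, 5210 bases for Pcca and 2771 for Pccb. Pcca had 16.0, 738 and 1327 normalized counts in Trf1+/+ libraries 1 to 3 and 1291, 1184 and 829 in Trf1flox/flox libraries 1 to 3. By these counts it was above Pccb in Trf1+/+ library 2 and in Trf1flox/flox library 2.

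**Figure D3:**
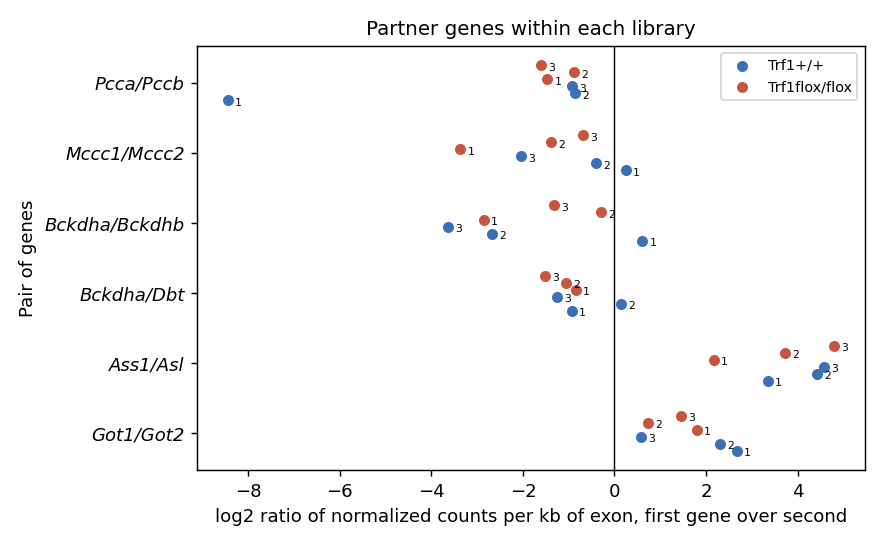
Log2 ratio of normalized counts per kilobase of exon, first gene over second, for 6 pairs of partner genes in each numbered library. Ass1/Asl and Got1/Got2 lie above 0 and Pcca/Pccb below 0 in all 6 libraries, and Pcca/Pccb in Trf1+/+ library 1 stands apart at -8.45. The positions of Got1/Got2, Pcca/Pccb and Mccc1/Mccc2 depend on the joined exon lengths. By normalized count each of these pairs changed direction between libraries.

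Other partner genes were in less constant proportion. Mccc1 stood below Mccc2 per kilobase in 5 of 6 libraries, with log2 ratios from -3.37 to 0.25. Bckdha stood below Bckdhb in 5 of 6, from -3.63 to 0.61, and below Dbt in 5 of 6, from -1.51 to 0.14. The exception was Trf1+/+ library 1 for Mccc1 and for Bckdha against Bckdhb, and Trf1+/+ library 2 for Bckdha against Dbt. Ratios per kilobase use the joined exons of all annotated transcripts, which are 10952 bases for Mccc1 and 2802 for Mccc2. By normalized count Mccc1 was above Mccc2 in Trf1+/+ libraries 1 and 2 and in Trf1flox/flox libraries 2 and 3. It was below Mccc2 in Trf1+/+ library 3 and Trf1flox/flox library 1, so the order of this pair depends on the length used. Bckdha shares 1171 of its 1899 exon bases with B3gnt8 on the opposite strand, so its level is uncertain.

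Glycine is split by the glycine cleavage system, made of Gldc (its decarboxylase), Amt (its aminomethyltransferase) and Gcsh (its lipoyl carrier) with a dehydrogenase that other complexes share. Amt (chr9:108296853-108302302, plus strand) had 2.67, 1.66 and 51.2 normalized counts in Trf1+/+ libraries 1 to 3 and 57.6, 98.4 and 61.3 in Trf1flox/flox libraries 1 to 3. The Trf1flox/flox libraries lay close together, Trf1+/+ library 3 was just under them, and Trf1+/+ libraries 1 and 2 were at the floor. The means were 18.5 ± 28.3 and 72.4 ± 22.5 (SD, n = 3 each), with a log2 fold change of 3.16 (SE 1.32), an unadjusted limma p of 0.0536 and an adjusted p of 0.996. The reads gave 1.92 by edgeR (unadjusted p = 0.369) and 1.96 by DESeq2 (unadjusted p = 0.342). Gldc had 124, 5.80 and 268 in Trf1+/+ and 129, 1.09 and 234 in Trf1flox/flox. It was near or at the floor in library 2 of both genotypes and similar in the others, with a log2 fold change of -0.61 (SE 2.28). Gcsh spanned 436 to 1386 with a log2 fold change of 0.23 (SE 0.86). Both Gldc and Amt stood below Gcsh per kilobase in every library where the pair exceeded the floor, 5 libraries for Gldc and 4 for Amt.

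Serine and glycine are exchanged by Shmt1 in the cytosol and Shmt2 in mitochondria. Shmt1 had 848, 673 and 556 normalized counts in Trf1+/+ against 1739, 1567 and 277 in Trf1flox/flox. Its Trf1flox/flox libraries 1 and 2 exceeded every Trf1+/+ library and library 3 was below them all, for a log2 fold change of 0.42 (SE 1.00). Shmt2 had 973, 1.66 and 549 against 269.8, 797 and 384. With 2 reads in Trf1+/+ library 2, its limma log2 fold change was 1.96 (SE 2.33), against -0.75 without that library and 0.0084 by edgeR on reads. Dmgdh, dimethylglycine dehydrogenase of choline breakdown, had 62.3, 0.829 and 64.0 in Trf1+/+ and 194, 3.28 and 334 in Trf1flox/flox. Dmgdh was at the floor in library 2 of each genotype, and elsewhere both Trf1flox/flox libraries exceeded both Trf1+/+ libraries, for a log2 fold change of 1.74 (SE 2.23). The value was 0.026 without Trf1+/+ library 2 and 3.70 without Trf1flox/flox library 2. Sardh, the sarcosine dehydrogenase of the following step, spanned 34.8 to 1892 with a log2 fold change of 2.13 (SE 1.28) and an unadjusted limma p of 0.147. In this group of 7, 6 members were higher and 1 lower in Trf1flox/flox, with a median log2 fold change of 1.74, and no member passed the test. Over all tested genes 55.9% were higher, with a median of 0.20. The median of the group is the value of Dmgdh, which had 2 libraries at the floor and 0.026 without Trf1+/+ library 2.

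**Figure D4:**
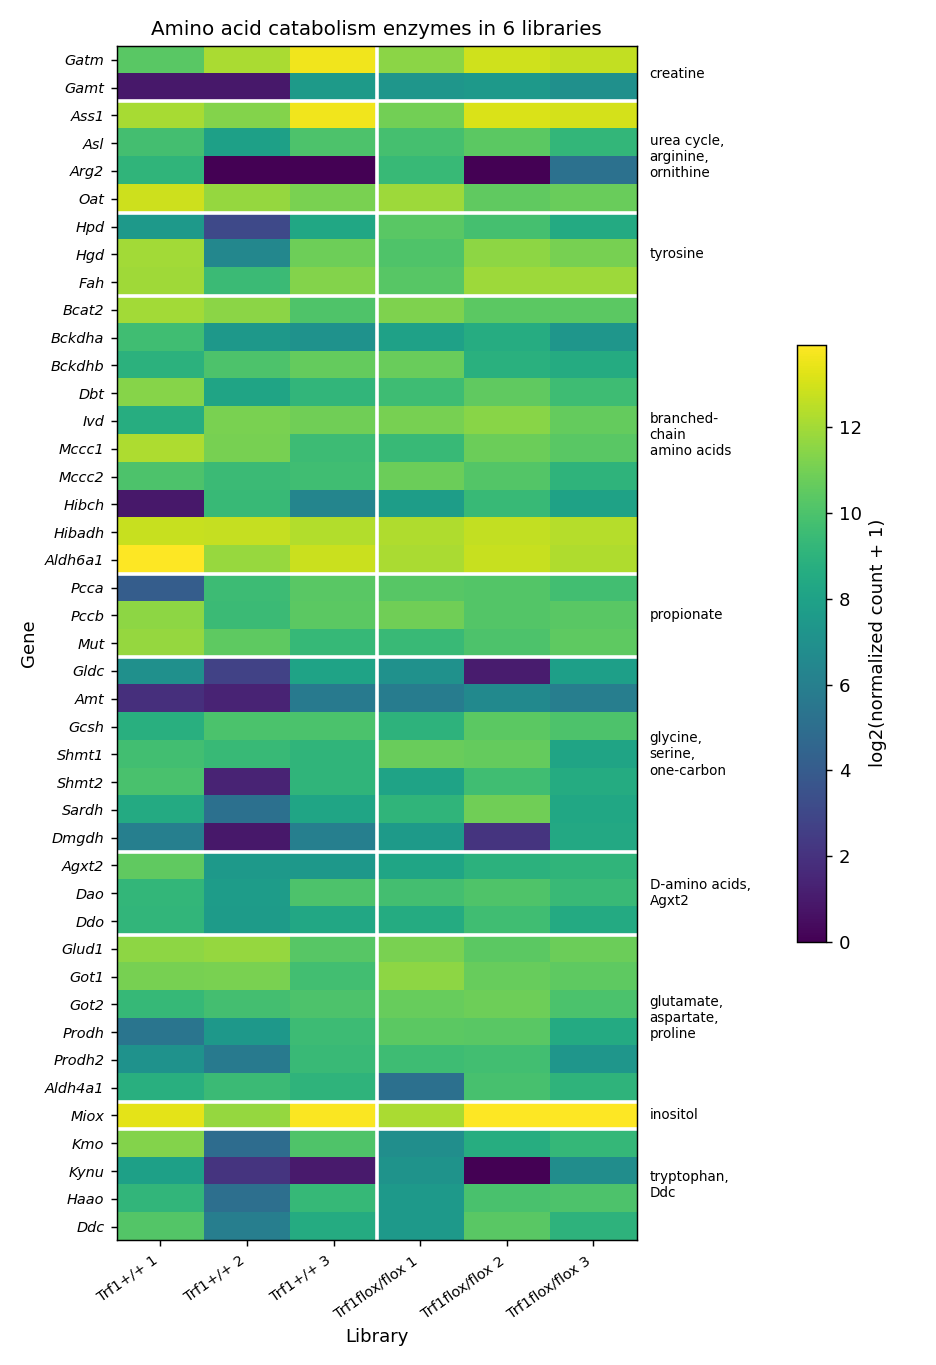
Log2(normalized count + 1) of the 43 enzymes (rows, by role) in the 6 libraries (columns), with a line between the genotypes. Dark cells mark values at or near the floor, which fell in Trf1+/+ libraries 1 to 3 and in Trf1flox/flox library 2, and no column block of 1 genotype is uniformly brighter.

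Dao and Ddo, oxidases of D-amino acids, and Agxt2, a mitochondrial aminotransferase that acts on beta-aminoisobutyrate, formed a group of 3 that were all higher by sign. Dao had 603, 206 and 1044 normalized counts in Trf1+/+ against 882, 1104 and 692 in Trf1flox/flox. Trf1+/+ library 2 was lowest and the other 5 overlapped, with a log2 fold change of 0.79 (SE 0.92). Ddo spanned 201 to 801 and Agxt2 173 to 1478, with log2 fold changes of 0.52 (SE 0.85) and 0.25 (SE 1.11).

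Glutamate dehydrogenase (Glud1) frees ammonia from glutamate. It had 2974, 3352 and 1274 normalized counts in Trf1+/+ against 2242, 1392 and 1770 in Trf1flox/flox. All Trf1flox/flox libraries lay between the lowest and the highest of Trf1+/+, for a log2 fold change of -0.40 (SE 0.81). Got1 and Got2, the cytosolic and mitochondrial aspartate aminotransferases, spanned 839 to 2963 and 644 to 1879. Got1 exceeded Got2 per kilobase in 6 of 6 libraries, by 0.58 to 2.67 on the log2 scale. This order depends on the joined exon lengths, 2539 bases for Got1 and 4824 for Got2. By normalized count Got1 was below Got2 in Trf1+/+ library 3 (839 against 1067) and Trf1flox/flox library 2 (1639 against 1879), and above it elsewhere. Prodh, proline dehydrogenase, spanned 41.9 to 1383 with a log2 fold change of 2.31 (SE 1.30) and an unadjusted limma p of 0.125. Prodh2, which oxidizes hydroxyproline, spanned 49.7 to 836 with a log2 fold change of 1.47 (SE 1.30). Aldh4a1, the dehydrogenase that completes proline breakdown to glutamate, spanned 34.4 to 952, with its lowest value in Trf1flox/flox library 1. Its log2 fold change of -1.08 (SE 1.39) was the lowest of the members by limma and turned to 0.36 without that library, while edgeR and DESeq2 gave -0.18 and -0.15. For Aldh4a1, 1595 of its 4907 exon bases belong also to Gm21969 on the same strand.

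Miox, myo-inositol oxygenase, is a proximal tubule enzyme of inositol breakdown and was counted among the members by the list. It had 10605, 3386 and 14958 normalized counts in Trf1+/+ against 4634, 15560 and 15326 in Trf1flox/flox. Low and high libraries occurred in both genotypes, and the log2 fold change was 0.35 (SE 1.00).

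Tryptophan is broken down through the kynurenine pathway, here represented by kynurenine 3-monooxygenase (Kmo), kynureninase (Kynu) and 3-hydroxyanthranilate dioxygenase (Haao), and Ddc decarboxylates aromatic amino acids. Kmo had 2588, 29.8 and 1088 normalized counts in Trf1+/+ against 116, 404 and 611 in Trf1flox/flox. Trf1+/+ held the 2 highest values and the lowest, so that the ratio of means was 0.305 while the log2 fold change was -0.53 (SE 1.83). Kynu had 243, 3.31 and 0.985 against 139, 0 and 113, and so was above 100 normalized counts in 3 libraries and near or at the floor in the other 3. The log2 fold change of Kynu was 0.98 (SE 2.66). Haao spanned 33.1 to 1044 and Ddc 60.5 to 1309, both lowest in Trf1+/+ library 2, with log2 fold changes of 1.28 (SE 1.49) and 0.74 (SE 1.39).

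Compared per kilobase of exon, most members were well expressed. By the median of their 6 percentiles among listed genes, 15 members stood above the 90th percentile and 4 under the 50th. The highest means were those of Miox (6508 normalized counts per kilobase), Ass1 (2697), Gatm (1969), Oat (1419), Aldh6a1 (1226) and Fah (1209). The ranges over libraries of neighbours in this order overlapped. The 4 low members were Arg2, Kynu, Amt and Dmgdh, at median percentiles of 29.9, 30.9, 45.5 and 49.6.

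Of the 35 members above the floor in all libraries, the ratio of the highest to the lowest of the 6 libraries had a median of 5.98, was under 2 for 1 member and over 10 for 10, and reached 176 for Hpd. Within Trf1+/+ this ratio had a median of 5.06 and reached 86.8 for Kmo, and within Trf1flox/flox it had a median of 2.58 and reached 27.7 for Aldh4a1. Of the 258 member values 14 were at the floor, 3, 5 and 2 in Trf1+/+ libraries 1 to 3 and 0, 4 and 0 in Trf1flox/flox libraries 1 to 3. Trf1+/+ library 2 held the lowest value of 20 members and the highest of 1, while Trf1+/+ library 1 held the highest of 15 and the lowest of 7. For Arg2, counted among the 20, the lowest value of 0 was shared with Trf1+/+ library 3 and Trf1flox/flox library 2. The members summed to 93307, 48043 and 82461 normalized counts in Trf1+/+ libraries 1 to 3 and to 56587, 88561 and 70926 in Trf1flox/flox libraries 1 to 3. The 20 proximal tubule markers, of which none is a member, summed to 106339, 20452 and 98436 and to 33563, 76891 and 153030 in the same order. Both sums were lowest in Trf1+/+ library 2 and next lowest in Trf1flox/flox library 1. The 8 loop and distal tubule markers, in contrast, were highest in these libraries, at 159139 and 170563. By limma, 15 proximal tubule markers were higher and 5 lower in Trf1flox/flox, with a median log2 fold change of 0.85 and 0 past the adjusted threshold, and their part in the members' values was not tested.

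**Figure D5:**
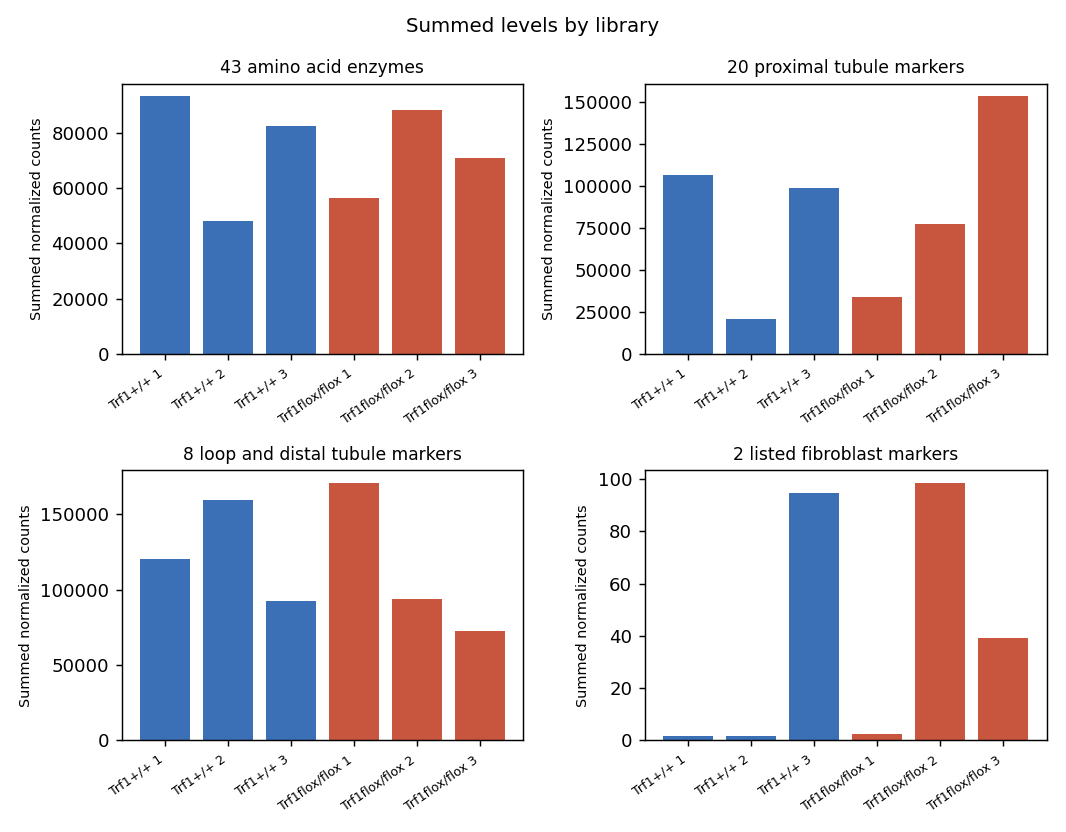
Summed normalized counts in each library of the 43 enzymes, 20 proximal tubule markers, 8 loop and distal tubule markers and the 2 fibroblast markers with a row. The enzymes and the proximal tubule markers are lowest in Trf1+/+ library 2, where the loop and distal markers reach 159139, and the fibroblast sum stays between 1.66 and 98.4.

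Of 103 further genes of amino acid metabolism that are no members, 85 had a row and 81 were tested. Among these, 37 were higher and 44 lower in Trf1flox/flox with a median log2 fold change of -0.10, and 0 passed the adjusted limma threshold. An unadjusted p under 0.05 was reached by 3, or 3.70% against 4.56% of all genes, and 5 had groups that did not overlap, or 6.17% against 8.68%, 1 higher and 4 lower. Both shares were below those of all genes. Bhmt, which remethylates homocysteine with betaine and thereby makes the dimethylglycine that Dmgdh oxidizes, had 0, 0.829 and 8.87 normalized counts in Trf1+/+ against 539, 417 and 48.2 in Trf1flox/flox. Every Trf1flox/flox library exceeded every Trf1+/+ library, of which 2 were at the floor. Its limma log2 fold change was 6.41 (SE 1.39) with an unadjusted p of 0.00344 and an adjusted p of 0.339, DESeq2 gave an adjusted p of 0.0104 and edgeR 0.999. With 1 library left out, the adjusted limma p of Bhmt ran from 0.134 to 0.645. Mmab, which prepares the cobalamin cofactor of Mut, had 1487, 39.8 and 185 in Trf1+/+ and 0.859, 30.6 and 6.89 in Trf1flox/flox. The groups were apart in the other direction, with a log2 fold change of -4.86 (SE 1.70), an adjusted limma p of 0.946 (0.474 to 1.00 with 1 library left out) and an adjusted p of 0.0362 by DESeq2. Both were past the adjusted threshold with DESeq2 and not with limma or edgeR.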

How the data were processed

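RNA of 3 Trf1+/+ and 3 Trf1flox/flox libraries was measured. The authors aligned reads with TopHat 2.0.10 (Bowtie 1.0.0, SAMtools 0.1.19) and counted genes with HTSeq 0.6.1. The methods name GRCm38, the submitters' processing notes GRCm39. The strand setting of the counting is not given in the sources used here. The libraries are unstranded, so 15 members that share exon bases with another gene are uncertain. The authors deposited 1 normalized signal per gene and library, read counts divided by a size factor per library, and all values (100%) were whole reads within 0.01 of a read. Reads have no molecular identifiers and were PCR-amplified, so the floor of 3 reads covers counting error only. Depth is given with the results.

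Values were compared as log2(normalized count + 1) in limma 3.58.1 (R 4.3.3), two-sided, for the 9966 genes that reached 10 normalized counts in 3 or more libraries, with Benjamini-Hochberg adjustment and a threshold of 0.05. Alternatives were a pseudocount of 10, no filter, upper quartile scaling, edgeR 4.0.16 and DESeq2 1.42.0 on recovered reads, and leaving out each library. The fits were tested on simulated data. The simulated spread between libraries was smaller than that of these data, so the test does not show how the fits perform here. Libraries were grouped by the genotype label and numbered in accession order. Exon lengths and gene positions came from GENCODE (GRCm38), and promoters from RefSeq (GRCm38.p6), without chromosome 18.

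All members are named. Values in every library are given for 23 members, those with groups apart or an unadjusted p under 0.05, the 10 highest, the highest of each role group, and those at the floor in 1 library and over 100 normalized counts in another. Wider pathway genes are named where groups were apart and the unadjusted p was under 0.05. Marker lists were read as sums. Of the remaining lists, 7 of 8 collecting duct markers had a row (522 to 18381 normalized counts), 2 of 9 endothelial (1.72 to 307), 4 of 11 leukocyte (0 to 2513), 1 of 7 pericyte (0 to 173) and 0 of 5 podocyte markers. The members and lists were chosen with earlier results of these data known.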

Additional observations from a re-analysis of the deposited data

How the results depend on the processing

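Fold changes of the 8 members with a value at the floor depend on the pseudocount and on single reads. Adjusted calls over all genes stayed at 0 under each alternative except DESeq2, with 58 genes. The count of members at an unadjusted p under 0.05 became 1 (Hpd) with a pseudocount of 10, against 5.25% of all genes. It was 1 (Hpd) with DESeq2, against 4.11% of all genes. When 1 library was left out it ranged from 0 to 4. It was 1 without Trf1+/+ library 2 (Hibch), against 5.86% of all genes. It was 4 without Trf1+/+ library 3 (Gamt, Hpd, Amt and Prodh), against 8.82% of all genes. Members with groups apart became 5 of 43 with upper quartile scaling, where 8.65% of all genes were apart. With 1 library left out they ranged from 3 to 13, while the share of all genes apart rose to between 14.6% and 25.5%. The 13 of 43 came without Trf1+/+ library 3, where that share was 25.5%. With 1 library left out, members higher in Trf1flox/flox ranged from 20 to 30, and the median log2 fold change from -0.10 to 0.69, the lowest of each without Trf1+/+ library 2. Of 23 members followed singly, 10 kept their sign in every alternative and 13 did not. The sign turned with edgeR for Gatm (-0.16), Ass1 (-0.015) and Pccb (-0.10), with DESeq2 for Gatm (-0.12), Ass1 (-0.023), Pccb (-0.17) and Shmt2 (-0.046), and with upper quartile scaling for Hibadh (0.12). With 1 library left out the log2 fold change ranged from -0.55 to 1.09 for Gatm, -0.51 to 0.72 for Ass1, -0.96 to 0.12 for Aldh6a1, -2.45 to 0.75 for Kmo, -0.53 to 2.24 for Hgd, -0.29 to 0.96 for Fah and -0.48 to 0.55 for Pccb. It ranged from -0.75 to 3.51 for Shmt2, -0.28 to 0.93 for Miox, -2.20 to 1.52 for Gldc, -0.37 to 3.31 for Kynu and -0.049 to 1.27 for Shmt1. The cause of these turns was not tested. No paired analysis was possible because the labels carry no replicate number, and numbers in accession order pair no mice.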
